A study of Mus musculus with 16 samples.

Results

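Quadriceps muscle of Mfn2 knockout (KO) mice aged 22 months was compared with that of Mfn2 KO mice aged 6 months. The comparison used 8 of the 16 arrays of the series, 4 per age with 1 mouse on each, and all 17097 genes with a probe set of a single symbol. Each gene was read from its brightest probe set over all 16 arrays. The other 8 arrays, 4 control mice at 6 months and 4 at 22 months, served to estimate the spread and to show where KO muscle differed. All mice were fed standard chow, and the muscle was snap frozen. The labels name the genotypes only as Control and Mfn2KO; the allele, the promoter of any Cre and the cells that lost the gene are not given in the sources used here, nor is the strain or sex. Quadriceps is a mixed limb muscle, so that every value is a mean over fibres and the other cells of the tissue. In such bulk samples a change in the number of cells of a type and a change in RNA per cell cannot be told apart.

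Mfn2 encodes mitofusin 2, a GTPase of the outer mitochondrial membrane. Together with Mfn1 it fuses the outer membranes of neighbouring mitochondria, and it also tethers mitochondria to the endoplasmic reticulum. Muscle fibres hold dense networks of mitochondria, and loss of fusion in muscle is known to disturb respiration, mitochondrial DNA and fibre mass. Ageing muscle is known for loss of mass, slower matrix turnover, p53 activity and immune infiltration. The comparison addresses how muscle without intact Mfn2 differs between young and old adults.

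The mice carry a replicate number from 1 to 4 and a family letter in the labels, and both bear on the values. Arrays of one number resembled each other across groups: the spread of the log2 values over probe sets, as standard deviation (SD), was 1.89 to 1.91 for number 1, 1.92 to 1.94 for number 2, 1.70 to 1.74 for number 3 and 1.79 to 1.81 for number 4. Age differences were therefore taken within a number and averaged over the 4 numbers. What the number marks is not stated. The young KO mice 1 to 4 came from families C, D, D and Other, and the old KO mice from A, A, A and Other. Family and age therefore cannot be told apart for numbers 1 to 3, and only the number 4 pair shares a family label, which need not be a single family. Its difference is given as the value within one label. Families A and B held only old mice, and C and D only young ones. A fit with family therefore links the ages only through mice labelled Other, among KO mice the number 4 pair. Its values are not independent of the number 4 values. Array medians lay between 4.58 and 4.65. The mean level of 12 muscle fibre markers was 12.0 to 12.2 in all 8 KO arrays, as the tissue label says. All levels and differences here are on the log2 scale, differences are 22 minus 6 months, and the number of arrays limits the precision.

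Mfn2 itself stood at 8.41, 8.49, 8.38 and 8.54 in the young KO arrays 1 to 4, and at 8.31, 8.01, 6.32 and 8.32 in the old ones. The old values lay below the young ones without overlap, and old KO replicate 3 was far lower than the rest. The mean difference was -0.71 (standard error, SE, 0.25, limma adjusted p = 0.348), and -0.37 without old KO replicate 3. An exact two-sided permutation test over the 70 splits of 4 against 4 gave p = 0.0286, and sign flips within the 4 numbers gave an exact p of 0.125; both are the smallest these designs can give. A dimmer probe set, with a mean level of 4.32, had the opposite sign in each number (0.20, exact p of 0.686 over splits and 0.125 over sign flips). In young control mice Mfn2 was 8.80 ± 0.60 against 8.45 ± 0.07 in young KO mice (SD, n = 4 each). The transcript did not separate the genotypes at 6 months. At 22 months all 4 KO arrays lay below the 4 control arrays (8.52, 8.67, 8.34 and 9.18). Whether a probe set lies in the deleted part is not known, which limits Mfn2 as a check of the labels.

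In KO muscle 4 genes passed an adjusted p of 0.05 between 6 and 22 months: Eda2r rose, and Mlf1, Nrep and Col3a1 fell. That is 0.00585% of genes called higher and 0.0175% called lower. Each had the same sign in 4 of 4 numbers, and for each the 2 ages did not overlap. Over all genes the old group lay wholly above the young one for 0.924% and wholly below it for 0.871%.

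Eda2r, the ectodysplasin A2 receptor of the tumour necrosis factor receptor family and a known p53 target, was 5.95, 5.56, 4.50 and 4.43 in young KO mice 1 to 4. In old KO mice it was 6.66, 6.77, 6.49 and 6.08. Every old mouse was above every young one, and numbers 3 and 4, which were lowest when young, differed most (1.99 and 1.65). It rose 2.62-fold (1.39, SE 0.19, limma adjusted p = 0.0160). In control muscle the age difference was 0.58 (limma adjusted p = 0.355), and the difference between genotypes was 0.81 (limma adjusted p = 0.641).

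Mlf1, myeloid leukemia factor 1, was 9.56, 9.43, 9.56 and 9.52 in young KO mice, which is nearly 1 level. It was 8.80, 8.72, 8.35 and 8.90 in old KO mice. All old mice were lower, replicate 3 most. Mlf1 fell by 0.82 (SE 0.11, limma adjusted p = 0.0160), and it fell in control muscle too, by 0.69 (limma adjusted p = 0.0435).

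Nrep, a small neuronal regeneration related protein known for its expression in regenerating tissue, was 10.47, 10.74, 10.85 and 10.83 in young KO mice. In old KO mice it was 9.33, 9.82, 9.06 and 9.90. The old group was lower throughout and more spread out. Nrep fell by 1.19 (SE 0.16, limma adjusted p = 0.0160), against -0.47 in control muscle (limma adjusted p = 0.372), with a difference between genotypes of -0.72 (limma adjusted p = 0.641).

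Col3a1, the chain of type III collagen, was 10.83, 10.90, 10.79 and 11.32 in young KO mice and 10.15, 10.27, 9.74 and 10.03 in old ones. Young replicate 4 was the highest and old replicate 3 the lowest. Col3a1 fell by 0.92 (SE 0.13, limma adjusted p = 0.0239), and in control muscle it differed by -0.71 (limma adjusted p = 0.0829).

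The count of calls moved with the setting. It was 3 without the replicate block, with Mlf1, Nrep and Col3a1 alone, and 34 from the 8 KO arrays alone. With family in the fit it was 1, a gene other than Eda2r, Mlf1, Nrep and Col3a1. With the pyruvate carboxylase signal described at the end it was 0. Leaving out 1 of 16 arrays gave 0 calls without young KO replicate 3, 2 without young KO replicate 4 or old KO replicate 4, 10 without old KO replicate 1 and 21 without old control replicate 1. Mlf1 and Nrep were called in 14 of these 16 runs, Eda2r in 12 and Col3a1 in 11. When all arrays of a number were left out, each of the 4 genes kept its call in 1 of 4 runs.

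**Figure D1:**
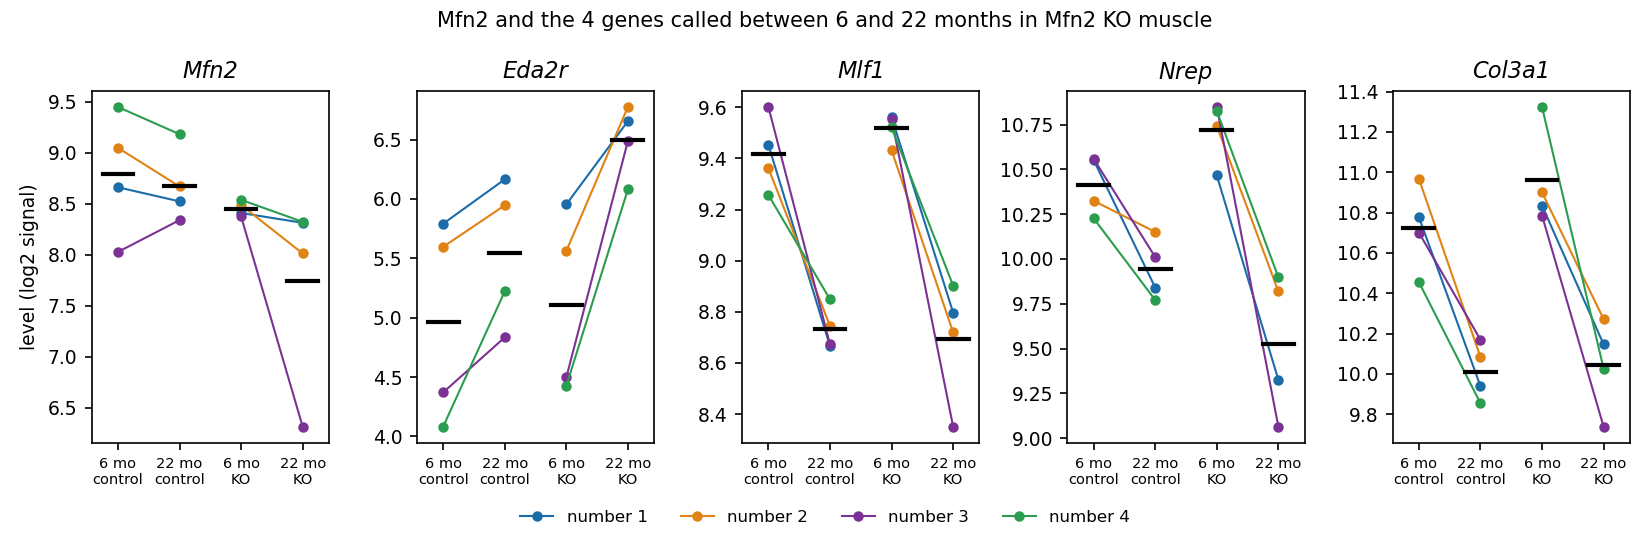
Levels (log2 signal) of Mfn2 and the 4 called genes in the 16 arrays; points are mice, lines join the arrays of one replicate number, which are different mice, and black bars are group means. In the KO panels all 4 lines of Eda2r go up and all 4 of Mlf1, Nrep and Col3a1 go down, and Mfn2 is low in old KO replicate 3 alone (6.32).

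Below these came genes that did not pass. At an unadjusted limma p under 0.05 there were 1751 genes, 10.2% of those tested, with 746 higher (4.36%) and 1005 lower (5.88%) in old KO muscle. By sign alone 47.1% of all genes were higher and 52.9% lower. The counts of list members below are to be read beside these shares. The 15 higher and 15 lower genes of smallest p, which include Eda2r, Mlf1, Nrep and Col3a1, went one way in 4 of 4 numbers each, which 8.92% of all genes did upward and 10.8% downward. In both directions 12 of the 15 had groups that did not overlap. These are genes picked by their p, so that their agreement is a description.

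On the higher side, Igkj1, a joining segment of the immunoglobulin kappa locus that marks antibody-making cells, was 3.37, 3.37, 4.87 and 4.75 in young KO mice. In old KO mice it was 8.16, 8.43, 6.61 and 7.99. Its difference, 3.71 (SE 0.65, limma adjusted p = 0.0584), was the largest of these genes. Dkk3, a secreted Dickkopf family protein, was 6.58, 7.34, 5.40 and 5.96 when young and 7.44, 9.54, 8.22 and 9.41 when old, a difference of 2.33 (SE 0.39, limma adjusted p = 0.0584). The ages did not overlap in either gene, and both genes were also higher in old control muscle (2.53 and 2.26, limma unadjusted p = 0.00154 and 4.23e-05).

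Other genes of this group differed in KO muscle with little difference in control muscle. Rnase2a, an eosinophil-associated ribonuclease, was dim at 3.16 to 3.26 in young KO mice and 3.44 to 4.32 in old ones. Its difference was 0.70 in KO (limma adjusted p = 0.0521) and 0.05 in control muscle. Nlrc5, the transactivator of MHC class I genes, was 3.64, 3.78, 4.52 and 4.21 in young KO mice and 5.36, 4.28, 5.58 and 4.77 in old ones. Its difference was 0.96 in KO and -0.21 in control muscle. Retnla, a secreted product of alternatively activated macrophages, differed by 1.06 against 0.04, and Srxn1, the sulfiredoxin that repairs peroxiredoxins and an NRF2 target, by 0.85 against 0.07. The limma unadjusted p of the difference between genotypes was 0.000866 for Rnase2a, 0.000223 for Nlrc5, 0.00249 for Retnla and 0.00335 for Srxn1, and the adjusted p was 0.641 for each. These genes were picked by their p in KO muscle, and the KO difference enters this p, so that it is a description.

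The complement component C4b (1.63), the lipid carrier Apod (0.85), Fam241b (0.42), Prkcz (0.47), an atypical protein kinase C, the Z-disc protein Pdlim3 (0.30), the noncoding RNA Snhg16 (0.45), Themis3 (0.41) and the amylase Amy1 (0.86) completed the higher 15. Their limma adjusted p lay between 0.0714 and 0.106. In control muscle, where 46.9% of all genes were higher by sign and 53.1% lower, 14 of the 15 had the same sign, 11 of them with an unadjusted p under 0.05, as 4.66% of all genes had upward.

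On the lower side 5 of the 15 were collagens, described next. Among the rest, Cdkn1b, the cyclin-dependent kinase inhibitor p27, was 8.12, 8.22, 8.07 and 8.33 in young KO mice and 7.67, 7.87, 7.30 and 7.49 in old ones. It differed by -0.60 (SE 0.10, limma adjusted p = 0.0584), with no overlap. Wnt5a, a non-canonical Wnt ligand, differed by -0.56, the histone gene H3c11 by -0.66, Dnmt3a, a de novo DNA methyltransferase, by -0.47, and Cav3, the muscle caveolin of the sarcolemma, by -0.54. The RNA-binding protein Rbm45 differed by -0.62 in KO and 0.01 in control muscle, Cmss1 by -0.58 against -0.05 and Smco1 by -0.52 against -0.10. Of the 15 lower genes 14 had the same sign in control muscle, 12 of them with an unadjusted p under 0.05, as 4.98% of all genes had downward. Of Cmss1, 1 of the dimmer probe sets was at 0.01. The limma unadjusted p of the difference between genotypes was 0.00101 for Rbm45, 0.00308 for Cmss1 and 0.00557 for Smco1. None passed after adjustment, where the smallest limma adjusted p over all genes was 0.641. As above, the genes were picked by their p in KO muscle, and the KO difference enters this p.

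Collagens were lower in old KO muscle as a group. Of 18 measured chains 15 were lower. At an unadjusted p under 0.05 there were 13, where 5.88% of all genes were lower, and 13 were lower in 4 of 4 numbers, as 10.8% of all genes were; 12 chains met both. The median was -0.47, against -0.008 over all genes, and by number it was -0.43, -0.45, -0.53 and -0.88. Fibroblasts in the muscle connective tissue make fibrillar collagens, and basement membrane collagens sheathe fibres and capillaries.

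Col1a1, a chain of type I collagen, was 10.01, 10.41, 9.52 and 10.22 in young KO mice and 9.002, 9.10, 8.72 and 9.10 in old ones. The ages did not overlap, and each pair differed by at least 0.80 downward. The mean was -1.06 (SE 0.17, limma adjusted p = 0.0584), while Col1a2, the partner chain, was among the 3 that were not lower and was read from a dim probe set (4.36 to 4.59 in old KO mice). Of the type V chains that nucleate fibrils, Col5a2 was 7.70, 7.85, 7.20 and 7.76 when young and 7.01, 7.18, 6.02 and 6.53 when old, a difference of -0.94. Col5a1 differed by -0.72, and Col15a1, which sits where basement membrane meets interstitial matrix, by -0.87 (limma adjusted p = 0.0584 for both type V chains and 0.0594 for Col15a1).

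The beaded filament collagen VI, which links the basement membrane to the matrix, showed the same sign in its 3 main chains, chosen for mention after their values were seen. Col6a3 was 7.58, 7.86, 7.25 and 8.20 in young KO mice and 6.78, 7.40, 6.21 and 6.23 in old ones, with an overlap of young replicate 3 and old replicate 2. Its difference was -1.06 in KO muscle and -0.09 in control muscle (limma unadjusted p of the difference between genotypes 0.00483, adjusted p = 0.641). Col6a1 and Col6a2 differed by -0.67 and -0.72 in KO and by -0.39 and -0.40 in control muscle. The type IV chains Col4a1 and Col4a2, named for the same reason, differed less, by -0.34 and -0.32.

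In control muscle the collagen median was -0.26 and 8 of 18 had an unadjusted p under 0.05 downward, where 4.98% of all genes did. Of the differences between genotypes, 1 of 18 had an unadjusted p under 0.05 (3.76% of genes downward). Among 31 collagen-processing and other matrix proteins 24 were lower in old KO muscle, 8 with an unadjusted p under 0.05 (median -0.16). In control muscle 23 of the 31 were lower, 6 at that p (median -0.13), so that both genotypes differed alike with age. The difference between genotypes had an unadjusted p under 0.05 in 1 of 31 upward and 1 downward. Sparc, a collagen-binding glycoprotein, was 10.87, 10.97, 10.90 and 11.18 in young KO mice and 10.61, 10.65, 10.65 and 10.65 in old ones. The old values lay within a narrow band below all young ones (difference -0.34, limma adjusted p = 0.0848). The laminin chain Lamb1 (-0.50), nidogen Nid1 (-0.55) and elastin, Eln (-0.42), had an adjusted p of 0.290 to 0.317, and a dimmer Lamb1 probe set was at 0.02. Beside them, 4 fibroblast and tendon markers had a mean level of 5.73 to 6.27 in young and 5.56 to 5.94 in old KO mice, with 0 past an unadjusted p of 0.05; their part in the result was not tested. Of the 31 matrix proteins 3 were lower in 4 of 4 numbers, and the number 4 median was -0.34. The matrix count of 8 was 1 without the replicate block, 2 with the pyruvate carboxylase signal, 5 without old KO replicate 2 or 3 and 4 without old KO replicate 4. The count of 13 collagens was 8 without the replicate block or with the pyruvate carboxylase signal, and 11 with family in the fit, with medians of -0.47, -0.29 and -0.85.

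**Figure D2:**
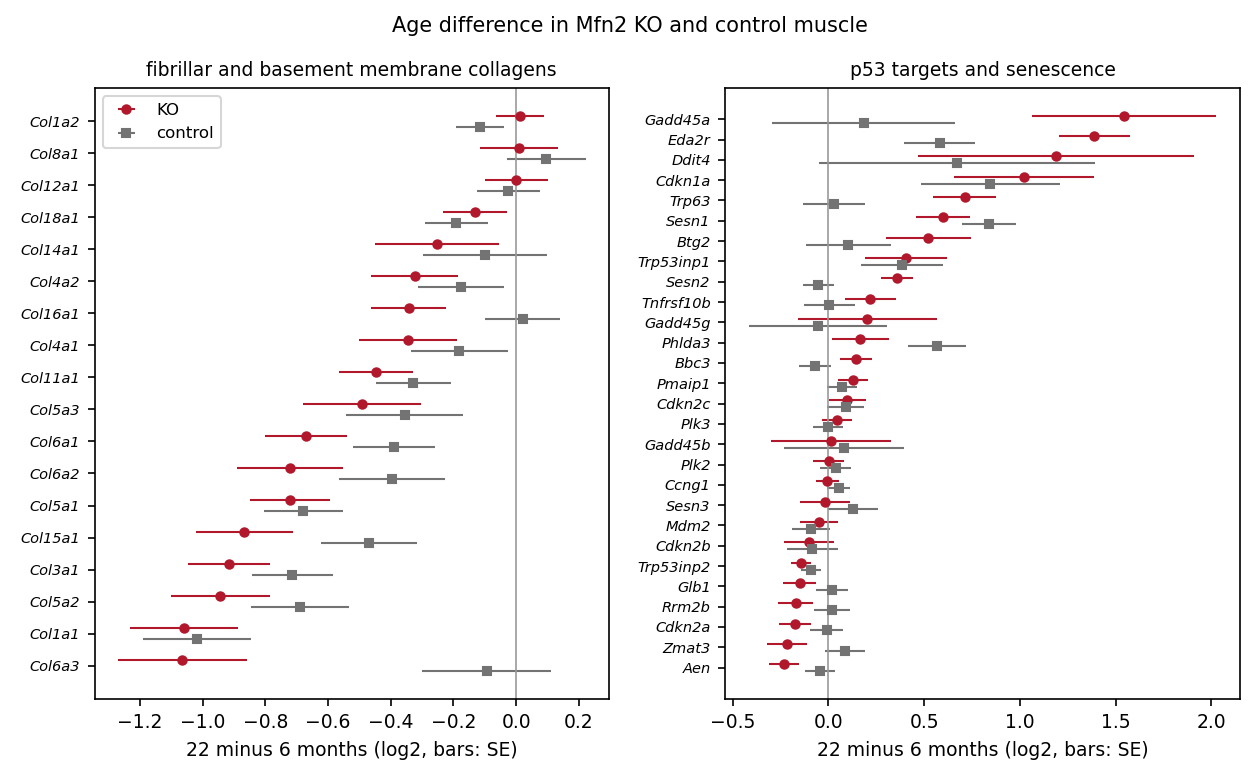
Difference between 22 and 6 months (log2, points with SE bars) of each measured collagen and each p53 and senescence gene in Mfn2 KO (circles) and control muscle (squares). Most collagens lie left of 0 in both genotypes, with Col6a3 at -1.06 in KO and -0.09 in control muscle; Eda2r, Gadd45a and Cdkn1a lie furthest right among p53 genes with an unadjusted p under 0.05.

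The p53 pathway answers DNA damage and other stress by inducing cell cycle inhibitors, death receptors and sestrins. Of 28 such genes 7 were higher and 2 lower at an unadjusted p under 0.05, against 4.36% and 5.88% of all genes. Eda2r was the 1 that passed over all genes. The list median was 0.11, and by number 0.10, 0.10, 0.10 and 0.07. Sesn1 and Sesn2, sestrins that restrain mTORC1, differed by 0.60 and 0.36 in KO muscle. Sesn1 was 6.97, 7.01, 5.93 and 6.92 when young and 7.84, 7.48, 6.60 and 7.29 when old, higher in each pair though old replicate 3 overlapped the young mice. In control muscle Sesn1 differed by 0.84 and Sesn2 by -0.05.

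Trp63, the p53 relative p63, was 6.42, 6.57, 6.12 and 6.04 in young KO mice and 7.07, 7.25, 6.996 and 6.68 in old ones. All 4 pairs differed by 0.64 to 0.88 with no overlap between the ages, for a mean of 0.71 (limma adjusted p = 0.171) against 0.03 in control muscle. Cdkn1a, the cell cycle inhibitor p21, was 8.36, 9.36, 8.72 and 6.64 when young and 9.62, 9.37, 8.70 and 9.47 when old. The pairs of numbers 2 and 3 hardly differed (0.01 and -0.01), and the mean of 1.02 came from numbers 1 and 4; it was 0.45 without young KO replicate 4. Gadd45a, a stress gene induced in denervated and fasted muscle as well, differed by 0.98, 0.46, 3.42 and 1.32 in the 4 numbers. The 2 lower members were Aen (-0.23), an apoptosis-linked nuclease, and Trp53inp2 (-0.14), an autophagy protein. With family in the fit, or with the pyruvate carboxylase signal, 3 of the 28 were higher at an unadjusted p under 0.05.

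Interferon-induced GTPases, type I interferon-stimulated genes and MHC genes had medians above 0 in old KO muscle, mostly from numbers 1 and 3. Interferons induce large GTPases that attack the vacuoles of intracellular microbes, enzymes that block viral replication, and the machinery that loads peptides onto MHC molecules. None of these genes passed over all genes tested. The 11 interferon-induced GTPases had a median difference of 0.70, 6 of them with an unadjusted p under 0.05 upward, as 4.36% of all genes had, and 0 downward. By number their median was 1.68, 0.08, 1.10 and 0.05, so that numbers 2 and 4, the latter within one family label, showed almost none of it.

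Igtp, an immunity-related GTPase, was 5.90, 6.02, 5.88 and 5.88 in young KO mice, which is close to 1 level. In old KO mice it was 7.92, 6.79, 9.35 and 6.62. All 4 old mice were above the young ones, replicates 1 and 3 by 2.02 and 3.48 (mean 1.75, SE 0.42, limma adjusted p = 0.182). Tgtp1 was 4.14, 3.97, 3.89 and 4.15 when young and 7.58, 4.70, 6.22 and 4.18 when old. Old replicate 4 was at the young level (mean 1.63, limma adjusted p = 0.202). Iigp1 was 4.48, 4.19, 4.59 and 6.28 when young and 8.26, 5.87, 9.27 and 5.36 when old, with the number 4 pair going the other way (-0.92). Irgm2, which guards self membranes, was 4.93, 4.89, 4.83 and 4.91 when young and 5.97, 5.25, 7.42 and 5.35 when old (mean 1.11, limma adjusted p = 0.263). In control muscle these 4 differed by 0.40, -0.16, -0.10 and 0.24.

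Promoters of 8 of the 11 GTPases were in the RefSeq table (build GRCm38.p6, 250 bases before to 50 after the start). The core of the interferon-stimulated response element (GAAA, any 2 bases, and GAAA again), searched on both strands, occurred in 7 of these 8 genes, against 3.99% of the 27025 genes in the table. The gamma-activated site TTCNNNGAA, which is its own reverse complement, occurred in 4 of 8, against 9.55%. Gbp7 held both motifs (1 response element core and 2 gamma-activated sites) and is not shown. The promoters of Igtp, Irgm2 and Tgtp1, chosen by hand for display, held both motifs side by side with 2 bases between them. They are shown 5′ to 3′ on the gene's strand with both motifs in capitals, the gamma-activated site first:
Igtp: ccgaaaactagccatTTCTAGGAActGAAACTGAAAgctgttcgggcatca
Irgm2: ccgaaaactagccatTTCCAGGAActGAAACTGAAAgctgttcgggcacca
Tgtp1: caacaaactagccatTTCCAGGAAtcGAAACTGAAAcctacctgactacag
These windows lie at chr11:58199496-58199546 (plus strand), chr11:58214887-58214937 (plus strand) and chr11:48992299-48992349 (minus strand). Their first motif starts 45, 75 and 88 bases before the annotated start. The Igtp and Irgm2 windows share 49 of 51 bases, and Tgtp1 shares 34 with Igtp and 36 with Irgm2. Among other lists the response element core occurred in 10 of 22 type I interferon-stimulated genes and 3 of 14 class I genes with a promoter in the table. The p53 site core (CATG, any 6 bases, and CATG again) occurred in 1 of 22 p53 genes, against 0.833% of all. A match is a description of the letters.

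The 32 type I interferon-stimulated genes were higher in 29, 4 of them with an unadjusted p under 0.05 (median 0.12). Their medians by number, 0.60, 0.03, 0.14 and -0.10, set number 1 apart. Rsad2, the antiviral enzyme viperin, was 5.75, 5.95, 5.43 and 5.93 in young KO mice and 8.78, 6.59, 6.21 and 7.01 in old ones. The groups did not overlap, and old replicate 1 was highest by far (mean 1.38, limma adjusted p = 0.182). Usp18, which switches interferon signalling off, differed by 0.42, Ifitm3, a membrane protein that blocks virus entry, by 0.30, and Ifit3 by 0.51, each with a negative value in number 4. The count of 4 was 1 without young or old KO replicate 1, 7 on leaving out old KO replicate 2, 9 on leaving out young replicate 4 and 13 on leaving out old replicate 4.

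Interferon-gamma signalling genes were divided: 9 of 14 were higher and 5 lower, 4 and 2 of them at an unadjusted p under 0.05 (median 0.16, number 4 at 0.08). That median was -0.02 with family in the fit, and it was 0.08 without old KO replicate 1 or with the pyruvate carboxylase signal and 0.10 without young KO replicate 1.

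For MHC class I presentation 16 of 17 genes were higher and 7 had an unadjusted p under 0.05, all 7 with the same sign in 4 of 4 numbers (median 0.18; by number 0.57, 0.14, 0.48 and 0.04). In control muscle the median was 0.01 with 0 such genes. The difference between genotypes had an unadjusted p under 0.05 in 7 of 17, against 3.48% of all genes upward, and 0 passed after adjustment. H2-D1, a classical class I heavy chain, was 10.06, 9.80, 9.99 and 9.90 when young and 10.69, 10.16, 10.97 and 10.14 when old. The ages did not overlap (mean 0.55, limma adjusted p = 0.202, against 0.03 in control muscle). The immunoproteasome subunit Psmb9, which shapes peptides for class I, was 5.59, 5.39, 5.60 and 5.74 when young and 6.87, 5.93, 6.42 and 5.75 when old, so that number 4 differed by 0.01 alone. A second probe set of Psmb9 was at 0.63 and the dimmest at -0.01.

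H2-T23, a class I gene that presents leader peptides, was 6.47, 6.67, 5.84 and 6.49 when young and 8.43, 6.95, 7.51 and 6.52 when old (mean 0.99). Psmb8, H2-K1 and H2-Q4, named after their values were seen, differed by 0.95, 0.51 and 1.52, with 0.17, 0.23 and 1.26 in number 4. H2 genes are near-identical copies of each other, so that a probe set may read several of them. Of 14 class II genes 8 were higher at an unadjusted p under 0.05, where 4.36% of all genes were. The class II median was 0.32, and by number 0.52, 0.20, 0.74 and -0.06. In control muscle 10 of the 14 were higher, 1 at that p, with a median of 0.10 and by number 0.25, 0.36, 0.15 and -0.12. Unlike in class I, the difference between genotypes had an unadjusted p under 0.05 upward in only 1 of 14. H2-Aa, a class II chain, was 8.32, 8.69, 8.84 and 9.22 when young and 9.65, 9.23, 10.23 and 9.40 when old. The old mice were higher in each pair, by 0.18 in number 4 (mean 0.86, limma adjusted p = 0.202). H2-DMb1 and H2-DMb2, which help load peptides, differed by 0.49 and 0.52. Cd74, the invariant chain, differed by 1.51, 0.59, 2.49 and -0.08 in the 4 numbers.

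With family in the fit the GTPases had 0, the class I genes 1 and the class II genes 0 members higher at an unadjusted p under 0.05, and the class II median was -0.04. When old KO replicate 1 was left out the median was 0.41 for the GTPases, 0.09 for class I genes and 0.02 for type I interferon genes, with 5, 7 and 1 members at that p. Leaving out young KO replicate 1 gave class I genes a median of 0.12, and leaving out old KO replicate 4 gave 0.27. Adding the pyruvate carboxylase signal gave larger values: a median of 1.31 with 9 of 11 GTPases at that p, 0.39 with 13 of 32 type I genes, and 0.47 with 8 of 17 class I genes.

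**Figure D3:**
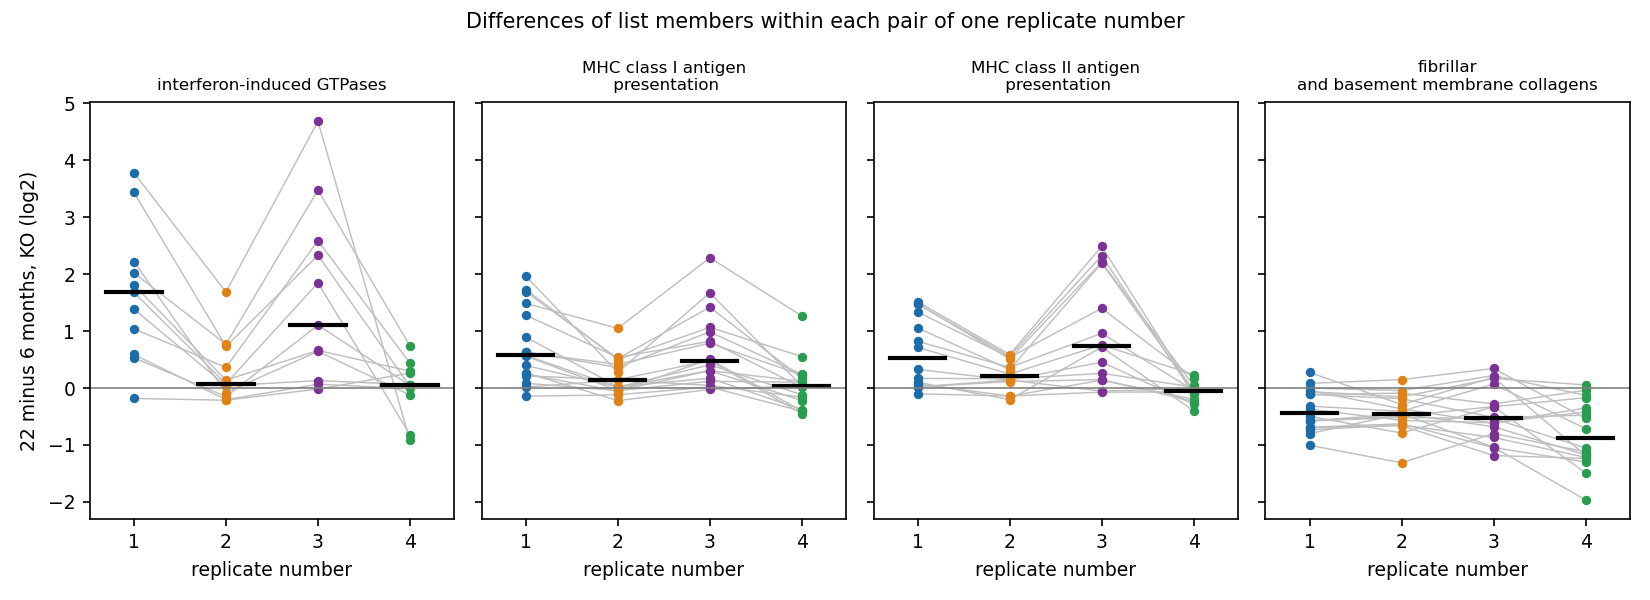
Difference between the old and the young KO array of each replicate number (log2) for every measured member of 4 lists; grey lines join the values of a gene and black bars are medians. In number 4 the medians of interferon and MHC genes lie near 0 while single genes do not (H2-Q4 at 1.26, Iigp1 at -0.92), and the collagens have their lowest median (-0.88).

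Complement, made by macrophages and fibroblasts among others, was higher in 11 of 12 genes, 6 at an unadjusted p under 0.05 (median 0.23, number 4 at -0.26). Of all genes 4.36% were higher at that p. In control muscle 12 of 12 complement genes were higher, 5 at that p, with a median of 0.35. The age difference of complement was thus shared by both genotypes. C4b was 5.75, 6.00, 5.81 and 6.44 in young KO mice and 8.32, 7.35, 7.54 and 7.32 in old ones. All old mice were higher, by 0.88 in number 4 (mean 1.63, SE 0.32, limma adjusted p = 0.0848). The C1q chains C1qc and C1qb (0.75 and 0.74), known as macrophage products, were lower in the old mouse of number 4 (-0.16 and -0.47). In control muscle C4b, C1qc and C1qb differed by 0.90, 0.71 and 0.82. Cfb, an alternative pathway protease, differed by 0.33 in KO muscle. Of 24 macrophage markers 21 were higher, 5 at an unadjusted p under 0.05 (median 0.15, number 4 at -0.13), against 10 of 24 in control muscle (median 0.32). Mpeg1, a pore-forming protein of phagocytes, differed by 0.52, the lectin Clec10a by 0.86, lysozyme, Lyz2, by 0.73 and the haemoglobin scavenger receptor Cd163 by 0.61.

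The mean level of 7 defining macrophage markers was 5.44 to 6.28 in young and 6.03 to 6.56 in old KO mice, 7 of 7 being higher on average. In number 4 it went from 6.28 to 6.03. That of 5 T cell markers was 4.16 to 4.57 and 4.27 to 4.70, with 0 of 5 past an unadjusted p of 0.05. The part of such cells in the interferon, MHC and complement values was not tested. The medians of complement and macrophage genes turned to -0.14 and -0.03 with family in the fit. Cd74, C1qb and Lyz2 turned to -0.14, -0.23 and -0.35. That fit links the ages only through mice labelled Other, which include the number 4 pair. The complement count of 6 was 2 when replicate 3 of either age was left out, and 3 for young KO replicate 1 or 2 or old KO replicate 1. The macrophage count of 5 was 2 without any one of young KO replicates 1, 2 and 3 and old KO replicates 1 and 3, 3 without old control replicate 3 and 9 without young KO replicate 4.

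Of 14 B and plasma cell genes 4 were higher at an unadjusted p under 0.05 (median 0.11): Igkj1, the antibody joining chain Jchain (0.67), the B cell receptor regulator Cd22 (0.21) and the kinase Blk (0.24). Jchain was 2.93, 2.93, 3.34 and 3.10 when young and 3.72, 4.04, 3.54 and 3.69 when old, all near the bottom of the scale but with no overlap. The defining B cell markers Cd79a, Ms4a1 and Ighm lay between -0.02 and 0.10. Of 17 mast cell and granulocyte genes 5 were higher at an unadjusted p under 0.05, where 4.36% of all genes were (median 0.12). That count of 5 was 1 on leaving out young KO replicate 1 and 2 on leaving out the old one. The mast cell proteases Mcpt4, Cma1 and Cpa3 differed by 0.56, 0.32 and 0.37, each higher in 4 of 4 numbers, and the granulocyte receptor Csf3r by 0.24. Mcpt4, Cma1 and Cpa3 were also higher in old control muscle, by 0.53, 0.58 and 0.67. Cpa3 in KO muscle turned to -0.080 with family in the fit, and with the pyruvate carboxylase signal Cpa3 and Jchain turned to -0.052 and -0.11.

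Immediate early genes, transcription factors induced within minutes by activity, stretch or handling of tissue, were higher in old KO muscle. Of 26 measured, 21 were higher and 10 had an unadjusted p under 0.05 upward, against 47.1% and 4.36% of all genes. The list median was 0.23, and by number 0.07, 0.12, 0.31 and 0.46. In control muscle the median was -0.02 with 1 such gene. The difference between genotypes had an unadjusted p under 0.05 upward in 5 of 26, against 3.48% of all genes. Fos, a subunit of AP-1, was 8.00, 6.72, 8.07 and 4.79 in young KO mice and 8.99, 9.35, 9.44 and 9.03 in old ones. The old mice were alike and above all young ones, which were spread out with replicate 4 lowest. The mean difference was 2.31 (SE 0.61, limma adjusted p = 0.223) against 0.08 in control muscle.

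Egr1, a zinc finger factor, was 8.62, 6.23, 6.54 and 6.61 when young and 8.64, 8.98, 8.75 and 8.35 when old. Young replicate 1 was at the level of the old mice, and the other 3 young mice were lower (mean 1.68). Junb, a partner of Fos, differed by 0.36, 0.67, 0.33 and 0.23 in the 4 numbers (mean 0.40, limma adjusted p = 0.178) and Ier2 by 0.30. Without old KO replicate 4 the count of 10 was 6, with family in the fit 5, and with the pyruvate carboxylase signal 3.

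Glucocorticoid-induced genes and metallothioneins, which follow stress hormone and metal load, were higher in 19 of 19 members. Of these 7 had an unadjusted p under 0.05, as 4.36% of all genes had upward. The list median was 0.39, and by number 0.30, 0.18, 0.41 and 0.92. In control muscle the median was 0.24. Cebpd, an acute phase transcription factor, was 6.80, 6.77, 5.38 and 5.55 when young and 7.10, 7.10, 7.36 and 7.40 when old. The ages did not overlap, and the difference lay mostly in numbers 3 and 4 (mean 1.12, limma adjusted p = 0.239). Dusp1, a MAP kinase phosphatase counted in this list and among the immediate early genes, was 9.55, 9.45, 9.29 and 8.73 when young and 9.94, 10.07, 9.70 and 10.25 when old (mean 0.73). The iron-binding lipocalin Lcn2 differed by 0.31 and Cdkn1a, also in this list, is given above. The count of 7 was 3 on leaving out young replicate 1 or old replicate 4, 4 on leaving out young replicate 4 or old replicate 3, and 0 with the pyruvate carboxylase signal.

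Fat cell genes had medians of opposite sign in KO and control muscle. Of 19 measured 14 were higher in old KO muscle, 4 at an unadjusted p under 0.05 (median 0.23, number 4 at 0.16), whereas in control muscle the median was -0.27 with 3 such genes lower and 1 higher. By number the control median was 0.61, -0.55, -0.11 and -1.06, so that number 1 went the other way. The mean level of the list was 6.75, 7.58, 7.06 and 7.76 in young control mice 1 to 4. In old control mice it was 6.70 to 7.48. The difference between genotypes had an unadjusted p under 0.05 upward in 7 of 19 and downward in 1, against 3.48% and 3.76% of all genes, and 0 passed after adjustment. Adipoq, the fat cell hormone adiponectin, was 4.58, 5.24, 4.68 and 6.70 in young KO mice. In old KO mice it was 8.54, 8.46, 5.16 and 8.60. Old replicates 1, 2 and 4 were above all young mice, and replicate 3 was among them. The mean difference was 2.39 (SE 0.72, limma adjusted p = 0.282) in KO and -1.48 in control muscle (limma unadjusted p of the difference 0.00190).

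Retn, which encodes the fat cell hormone resistin, was 6.18, 6.17, 6.29 and 6.59 when young and 7.69, 7.37, 6.81 and 7.34 when old, without overlap (mean 0.99). Lep, the satiety hormone leptin of fat cells, was dim at 3.23 to 3.49 when young and reached 4.01 and 4.58 in old replicates 2 and 4 alone. Car3, carbonic anhydrase 3 of fat cells and slow fibres, differed by 0.31. Of the 4 fat cell markers used to check cell types, Adipoq and Lep were measured here, with a mean level of 4.003 to 5.04 in young and 4.28 to 6.59 in old KO mice. Whether the values reflect more fat tissue in the dissected muscle was not tested. The median turned to -0.01 with family in the fit and to -0.11 with the pyruvate carboxylase signal, and without old KO replicate 1 the count of 4 was 2.

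**Figure D4:**
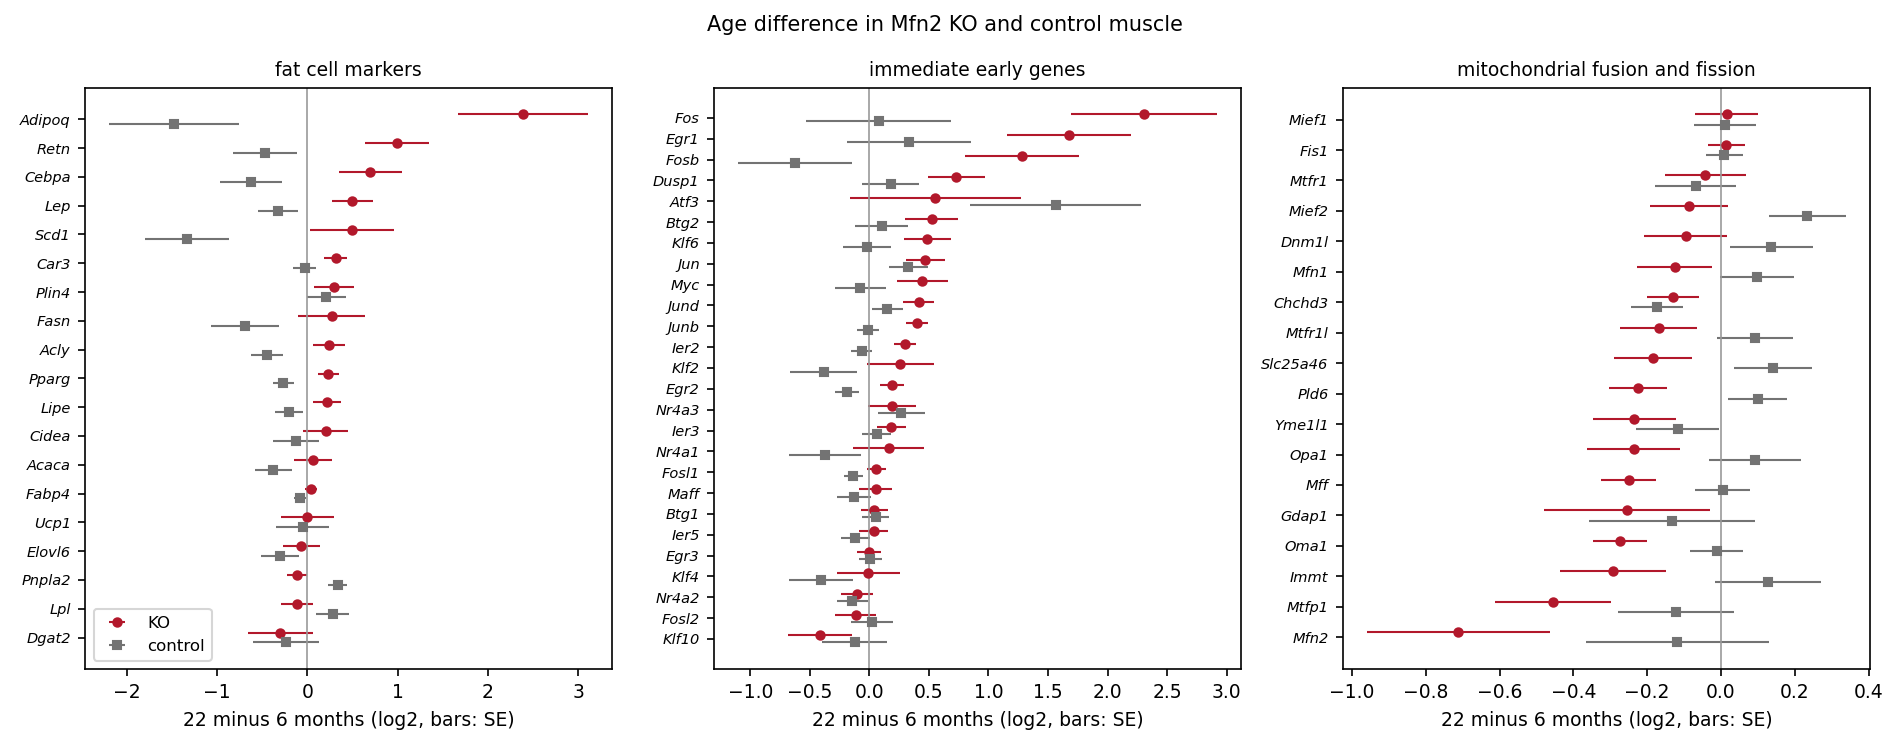
Difference between 22 and 6 months (log2, points with SE bars) of each fat cell, immediate early and mitochondrial fusion and fission gene in Mfn2 KO (circles) and control muscle (squares). Adipoq stands at 2.39 in KO and -1.48 in control muscle, Fos at 2.31 and 0.08, and most fusion and fission genes lie left of 0 in KO muscle alone.

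The genes of mitochondrial fusion and fission were lower in 16 of 18, 5 with an unadjusted p under 0.05, against 52.9% and 5.88% of all genes. Their median was -0.20, and by number -0.13, -0.02, -0.47 and -0.07. In control muscle the median was 0.01. Besides Mfn2, Oma1, the inner membrane protease that cleaves Opa1, was 8.63, 8.68, 8.38 and 8.36 in young KO mice and 8.48, 8.43, 7.97 and 8.07 in old ones. Each pair was lower, by 0.16 to 0.41 in size (mean -0.27, limma adjusted p = 0.223). Mff, the outer membrane receptor for the fission GTPase, differed by -0.25 and Mtfp1, an inner membrane fission protein, by -0.46, of which -1.04 was in number 3. The count of 5 was 2 when old KO replicate 3 was left out, with a median of -0.11, and 3 for young KO replicate 3, with a median of -0.10. It was 8 for old KO replicate 1 or 2, 9 for young KO replicate 2 or 4, 1 without the replicate block and 0 with family in the fit.

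Complex I, the NADH dehydrogenase of the respiratory chain, was lower in 32 of 33 genes. Of these 19 were lower in 4 of 4 numbers and 10 at an unadjusted p under 0.05. Over all genes these shares were 52.9%, 10.8% and 5.88%. The complex I median was only -0.09 (by number -0.07, -0.03, -0.18 and -0.08). Ndufs6 was 10.96, 10.87, 10.92 and 10.84 when young and 10.76, 10.80, 10.64 and 10.65 when old. The old mice were just below the young ones (mean -0.18, limma adjusted p = 0.240). Ndufa9, Ndufa8 and Ndufs8 differed by -0.15, -0.14 and -0.38. In control muscle the complex I median was -0.01, and the difference between genotypes had an unadjusted p under 0.05 in 1 of 33.

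The genes of complexes II to IV (26 of 29 lower, 3 at an unadjusted p under 0.05, median -0.07) and ATP synthase (14 of 15 lower, 1, median -0.07) differed less. Mitochondrial ribosomal proteins, which translate the mitochondrial genome, were lower in 50 of 56, 11 at an unadjusted p under 0.05 (median -0.11, number 4 at -0.09). Among them Mrps23 differed by -0.28, Mrpl13 by -0.25, Mrps33 by -0.25 and Mrpl2 by -0.17. In the TCA cycle list 17 of 22 were lower, 6 at an unadjusted p under 0.05 (median -0.08, number 4 at -0.05). At that p 5.88% of all genes were lower. The pyruvate dehydrogenase subunit Pdha1 was 10.91, 10.94, 10.84 and 10.72 when young and 10.74, 10.71, 10.60 and 10.53 when old, lower by about the same amount in each pair (mean -0.21, limma adjusted p = 0.193). Pdhb, its partner, differed by -0.21 with a dimmer probe set at 0.03, Dlat, the transacetylase, by -0.25, and fumarase, Fh1, by -0.14.

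Genes of fatty acid uptake and oxidation had a median of -0.01 in KO muscle, which quantile normalization turned to 0.01, against 0.25 in control muscle. By number the control median was 0.04, 0.14, 0.75 and -0.06, so that it lay mostly in number 3. At an unadjusted p under 0.05 mitophagy genes had 2 of 14 lower and 0 higher in KO muscle, where 5.88% of all genes were lower. In control muscle 5 of 14 were higher at that p, where 4.66% of all genes were. By sign 9 of 14 were higher in KO (median 0.02) and 10 of 14 in control muscle (median 0.15). The mitochondrial counts moved with single arrays and with the setting. Without old KO replicate 3 the counts at an unadjusted p under 0.05 were 2 for complex I, 2 for the TCA cycle and 1 for mitochondrial ribosomal proteins. Leaving out young KO replicate 3 gave 2, 2 and 2. For young KO replicate 1 left out they were 3, 3 and 5, and for old KO replicate 4 they were 5, 3 and 6. Complex I had 6 when young control replicate 1 or 2 or old control replicate 4 was left out. With family in the fit the counts for complex I, the TCA cycle and mitochondrial ribosomal proteins were 0, 0 and 1. Without the replicate block they were 6, 3 and 2, and with the pyruvate carboxylase signal 2, 3 and 0. The medians stayed below 0 in each of these fits (-0.06 for complex I with family).

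**Figure D5:**
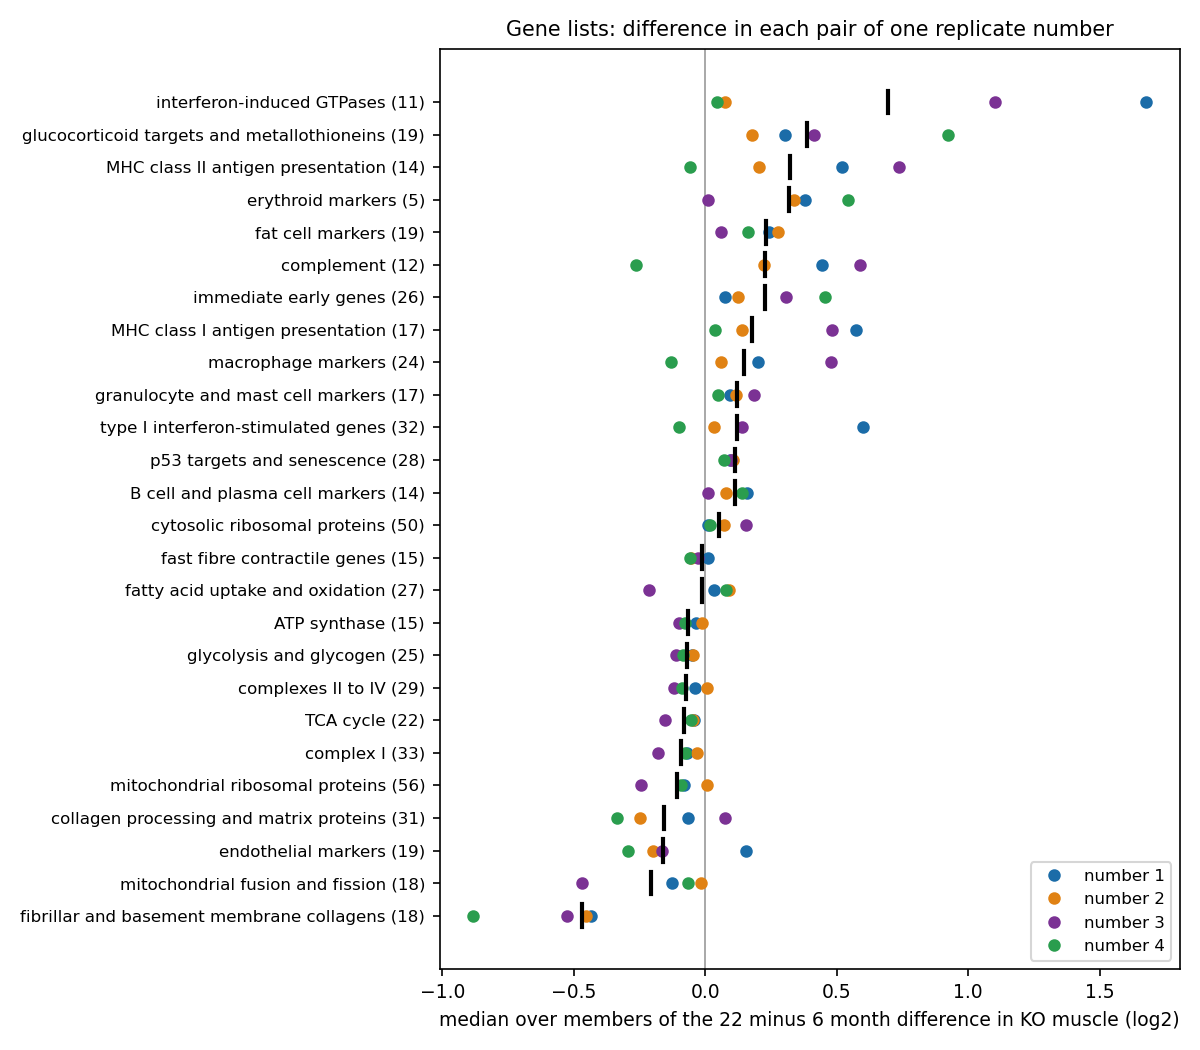
Median difference between old and young KO muscle over the members of 26 gene lists (log2, number of measured genes in brackets), one coloured point per replicate number and a black bar for the fitted median. Collagens are below 0 in all 4 numbers, while interferon-induced GTPases lie at 1.68 and 1.10 in numbers 1 and 3 and at 0.08 and 0.05 in numbers 2 and 4.

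Fibre type could not be read as an age difference. Slow fibre contractile genes had 0 of 11 past an unadjusted p of 0.05, and their medians by number were 0.00, -0.92, 1.41 and -0.92. Myh7, the slow myosin heavy chain, was 10.70, 9.89, 6.18 and 7.16 in young KO mice and 10.63, 8.48, 10.17 and 6.16 in old ones. The values ran from above 10 to near 6 at either age (mean 0.37, SE 1.41), and the mean was -0.34 without old KO replicate 3. Tnni1, the slow troponin I, followed the same mice (10.40, 9.48, 6.50 and 7.02 against 10.52, 8.56, 9.87 and 6.40). The slow light chain Myl3 was lower in 4 of 4 numbers (mean -1.07, SE 1.19), and at 1.64 with the pyruvate carboxylase signal. Slow fibres lie in part of the quadriceps, and which part was taken is not stated. Among 15 fast fibre genes 1 had an unadjusted p under 0.05 (median -0.01, turned to 0.00 by quantile normalization).

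Genes of muscle wasting, denervation and stress gave a few differences. Of 20 atrophy ligases and FoxO targets 5 were higher at an unadjusted p under 0.05, a count that was 2 when young KO replicate 3 or 4 was left out and 3 for young replicate 1 or old replicate 3 or 4. Trim63, the ubiquitin ligase MuRF1, was 10.03, 9.70, 10.03 and 9.61 when young and 10.58, 9.91, 10.63 and 10.32 when old (mean 0.51, limma adjusted p = 0.337), higher in each pair and by 0.50 in control muscle. The translation repressor Eif4ebp1 differed by 0.41 and Foxo1 by 0.24. Of 18 denervation and neuromuscular junction genes 4 were higher and 1 lower at an unadjusted p under 0.05, with a median of 0.02. Of the acetylcholine receptor subunits, which rise on denervation, Chrna1 differed by 0.43 and Chrnb1 by 0.45, the latter by -0.04 in number 4. Autophagy genes had 2 of 30 higher at an unadjusted p under 0.05 (median 0.03), where 4.36% of all genes were. The autophagosome protein Gabarapl1 differed by 0.29 in KO and 0.42 in control muscle, and Uvrag, an autophagy regulator, by 0.30. Glutathione peroxidase Gpx3 (0.55), the glutathione synthesis enzyme Gclc (0.33) and the transferase Gstm2 (0.49), were higher in 4 of 4 numbers. They come from 25 NRF2 and oxidative stress genes, of which 4 were higher and 2 lower at an unadjusted p under 0.05 (median 0.08). Chrnb1 and Gstm2 turned to -0.051 and -0.21 with family in the fit.

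Cytosolic ribosomal proteins were higher in 46 of 50, with 6 at an unadjusted p under 0.05, where 4.36% of all genes were. The median was small, 0.05 (number 4 at 0.02), against -0.05 in control muscle. The difference between genotypes had an unadjusted p under 0.05 upward in 12 of 50, against 3.48% of all genes, and 0 passed after adjustment. Rps25, Rpl12 and Rps19 differed by 0.14, 0.19 and 0.28. Without young or old KO replicate 3 the count of 6 was 2, and with family in the fit the median was 0.00. Of 19 endothelial genes 3 were lower at an unadjusted p under 0.05, where 5.88% of all genes were, or 6 when old KO replicate 1 was left out. The 3 were Tek and Tie1, the angiopoietin receptor and its partner (-0.51 and -0.34), and the surface sialomucin Cd34 (-0.48). Tek was 7.39, 7.48, 6.76 and 7.12 when young and 7.28, 7.12, 6.15 and 6.16 when old, with the largest difference in number 4 (-0.96). Red cell genes, a measure of blood left in the tissue, were higher in 5 of 5: Hbb-b2 by 0.40, Hba-a1 by 0.32 and Alas2, the haem synthesis enzyme of red cell precursors, by 0.82. In number 3 these were -0.01, 0.01 and -0.38. In control muscle they were 0.32, 0.33 and 0.87.

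The lists not described above had medians between -0.13 and 0.08. Their counts stand beside 4.36% of all genes higher and 5.88% lower at an unadjusted p under 0.05. Of 25 cytokines and chemokines 5 were higher and 0 lower at an unadjusted p under 0.05, and of 24 genes of the integrated stress response 4 were higher and 3 lower. TGF-beta family signalling had 3 higher and 4 lower of 25. ER chaperones had 4 of 24 higher and 0 lower, lysosomal genes 4 of 31 and 0, and glycolysis and glycogen genes 0 higher and 4 of 25 lower. Mitochondrial import, chaperones and proteases had 3 of 22 lower (median -0.13), and circadian clock genes had 0 of 19 in either direction.

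Set beside control muscle, the age difference in KO muscle was of like size over all genes, with a median absolute difference of 0.08 in both. In control muscle 7 genes rose (0.0409%) and 1, Mlf1, fell (0.00585%), with 1648 genes at an unadjusted p under 0.05 (9.64%). Of the genes at that level, 348 were shared, which is 19.9% of the KO and 21.1% of the control genes, and 301 of the shared ones had the same sign. The 2 comparisons share no array, but they share the estimates of the replicate numbers and of the spread. The difference between genotypes passed for 0 of 17097 genes with limma after adjustment (smallest adjusted p 0.641), and 1238 genes had an unadjusted p under 0.05 (7.24%).

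The 5 genes of smallest p for that difference had opposite signs in the 2 genotypes. Gm6150 differed by 0.33 in KO and -0.32 in control muscle, and Sncg, gamma-synuclein of nerve and fat, by 0.40 and -0.55. The splicing factor Sf3b2 (-0.15 and 0.36) and Sfr1, a recombination cofactor (-0.35 and 0.24), were lower in KO muscle. Sncg was 6.79, 6.86, 6.56 and 6.47 in young KO mice and 6.99, 7.35, 6.64 and 7.34 in old ones, higher in each pair and most in number 4. Nlrc5, given above, was the other. A dim Sf3b2 probe set was at 0.09 in KO muscle.

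Besides family, a signal of the arrays' own controls moved with age. The 3′ minus 5′ signal of the pyruvate carboxylase control, which can follow the length of the amplified copies, was higher in the old KO array in 4 of 4 numbers (mean 0.14, range 0.04 to 0.23). In control muscle this signal was also higher in the old array of each number, by 0.21, 0.03, 0.07 and 0.04. With it in the fit 0 genes were called, while the interferon and class I medians given above were larger, and the median SE went from 0.09 to 0.14. Eda2r, Mlf1 and Nrep then had an adjusted p of 0.428. Its part in the results above was not tested.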

How the data were processed

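RNA of 16 quadriceps samples, 1 mouse each, was amplified from 25 ng and hybridised to Affymetrix arrays, per the labels' protocols. The deposited log2 values were made by the authors with RMA from the affy package, per the submitters' processing notes; versions are not given in the sources used here, and RMA had already corrected the background and set the arrays to a common scale. Of 45037 probe sets that are not controls, 28898 had 1 gene symbol, 551 several and 15588 none. The brightest single-symbol probe set stood for each of 17097 genes. Probe sets of multigene families (H2, Tgtp, Gbp, globins, immunoglobulins) may read near-identical copies.

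Group means and the replicate number as a block were fitted to all 16 arrays with limma 3.58.1 (R 4.3.3, lmFit and eBayes with trend), and p-values were adjusted by Benjamini-Hochberg over all 17097 genes; called means an adjusted p under 0.05. Every limma p is two-sided. The number was used as a block because deviations of same-numbered arrays from their group means correlated at 0.289 to 0.780 in all 24 pairs. Arrays of unlike numbers had a median of -0.455. Deviations from a group mean cancel out within the group, so that this negative sign is partly built in and is no separate support. Nothing in the labels says what the number marks. The fit was tested on simulated data.

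Members and gene lists were chosen with earlier results of these data known. Lists are described by counts and medians, with no test. Named were Mfn2, the called genes, the 15 higher and 15 lower genes of smallest p, the 5 of smallest p for the difference between genotypes, and, in each list, up to 4 genes of smallest p in the direction of its median and up to 2 in the other. The rule gave 362 genes over 60 lists, and a part of them is described. Col6a3, Col6a1, Col6a2, Col4a1, Col4a2, Psmb8, H2-K1 and H2-Q4 lie outside this rule. The alternatives were no block, KO or control arrays alone, mean of probe sets, genes with a mean level above 5, no trend, quantile normalization, array weights, family as a fixed term or random block, the pyruvate carboxylase signal as a covariate, and leaving out each array or each number.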

Additional observations from a re-analysis of the deposited data

Results flagged for a closer look

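Within the groups of 4 KO mice, 14 of 262 gene and group combinations had 1 mouse apart from the other 3 by a gap that, as a share of the group's range, exceeded Dixon's critical value, 8 in young and 6 in old KO mice. Chance alone gives about 1 in 20 such groups. Mfn2 in old KO replicate 3 stood at 6.32 with the others at 8.01 to 8.32 (gap over range 0.846), and in the same mouse Adipoq was 5.16 with the others at 8.46 to 8.60 (0.959). Young KO replicate 3 was the low mouse for Col5a1 (0.895), Sesn1 (0.921), Cd34 (0.848) and Rpl12 (0.888). Young KO replicate 4 was high for Pdlim3 (0.893) and low for Ndufa9 (0.831). Young KO replicate 1 was high for Egr1, at 8.62 (0.841), and young KO replicate 2 for Igtp, by a small amount at 6.02 (0.85). Among old KO mice, replicate 1 was low for Sparc (0.951), within a narrow range, and high for Sesn2 (0.855), replicate 2 was high for Cpa3 (0.862) and replicate 4 was low for Chrna1 (0.875).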

How the results depend on the processing

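The 4 calls in KO muscle were 3 without the replicate block, 34 from the 8 KO arrays alone, 29 with array weights, 21 with family as a random block, 1 with family in the fit and 0 with the pyruvate carboxylase signal. In the random block the estimated correlation within families was slightly negative (-0.06), so that this setting took up no shared family variation. Leaving out 1 array or 1 number gave 0 to 21. The 8 calls in control muscle were 0 without the block, from the 8 control arrays alone, above a mean level of 5, without trend or with the pyruvate carboxylase signal, 3 with the mean of probe sets, 1 with family in the fit, and 0 to 15 on leaving out arrays or numbers. The difference between genotypes gave 0 calls in each of these settings except 0 to 4 on leaving out arrays or numbers. Eda2r lost its call without the block (limma adjusted p = 0.9999) and with quantile normalization (0.0603), and Col3a1 with the mean of probe sets (0.0693) or no trend (0.0652). With family in the fit the adjusted p of Eda2r, Mlf1, Nrep and Col3a1 was 0.166, 0.662, 0.474 and 0.392.

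With family in the fit the sign turned for Cd74 (-0.14), C1qb (-0.23), Lyz2 (-0.35), Cpa3 (-0.080), Gstm2 (-0.21), Chrnb1 (-0.051), Myh7 (-1.24) and Tnni1 (-0.91). With the pyruvate carboxylase signal it turned for Jchain (-0.11), Cpa3 (-0.052) and Myl3 (1.64), and with array weights for Myh7 (-0.17). On leaving out arrays or numbers Myh7 ran from -0.83 to 1.46 and Tnni1 from -0.47 to 1.41. The other Mfn2 probe set was at 0.20. The cause of these changes was not tested. Over the named genes, 2538 of 2600 values from leaving out arrays or numbers and 1211 of 1284 from other settings kept direction and side of the threshold. With 4 mice per group and a median SE of 0.09, small differences were not resolved, and dim genes near background are compressed on this scale.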
